A study of Mus musculus with 50 samples.

Results

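Podocyte genes were examined in mouse kidney, with liver and skin fibroblasts as contrast. The members were 8 genes taken by name from the first column of the gene count files (Nphs1, Wt1, Podxl, Synpo, Magi2, Ptpro, Plce1 and Cd2ap), of 24984 genes counted in all, and each of the 8 was found. RNA-seq was made from untreated C57BL/6 mice aged 2.5 months (young) or 23 to 25 months (old), and from C57BL/6 mice aged 20 to 21 months that received DMSO or 3C, with 4 kidney and 4 liver libraries in each group. Skin fibroblasts, named P9 in the labels, received DMSO or 3C and gave 3 libraries each. ATAC-seq, which reads open chromatin as peaks over the local background, covered kidney and liver of untreated young and old mice with 3 libraries each. The animal groups share the strain and differ in age or agent, and the labels name no transgene. The identity of 3C, its dose and the meaning of P9 are not given in the sources used here.

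Podocytes are the epithelial cells that wrap the capillaries of the kidney glomerulus. Their interlocking foot processes are bridged by the slit diaphragm, a cell junction that, with the glomerular basement membrane and the endothelium, forms the filter of the blood. Podocytes divide little after birth, and mutations in several of these genes cause inherited protein loss into the urine. Since podocytes are a small share of kidney cells, RNA of whole kidney holds their transcripts beside a large excess of tubule transcripts, and in such bulk samples fewer cells of a type and less RNA per cell cannot be told apart.

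Libraries held 14.2 to 43.7 M counted reads. The tissue labels were checked against marker genes. The summed level of 6 proximal tubule genes was 3520 to 8180 CPM (reads of a gene relative to the TMM-scaled library size) in the young and old kidney libraries and 5290 to 7160 CPM in the DMSO and 3C kidney libraries, against 0.119 to 18.5 CPM in the liver libraries and 3.34 to 7.31 CPM in the fibroblasts. One library stood apart, old kidney replicate 2, in which the 8 hepatocyte genes summed to 2380 CPM against 68.6 to 115 CPM in the other 3 old kidney libraries, and the age comparison in kidney is given with and without it. The labels do not tie a replicate to a separate animal or culture, so p-values measure the spread between these libraries, which may be technical.

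Most of the members were kidney genes in these data. Between young kidney and young liver, 6 of 8 members were called higher in kidney by edgeR's quasi-likelihood test (the call required an adjusted p, by Benjamini-Hochberg, under 0.05 together with a more than 2-fold change), namely Nphs1, Wt1, Podxl, Synpo, Magi2 and Ptpro. The background was 25.7% of the genes tested called higher and 16.9% called lower in kidney. The other two, Cd2ap and Plce1, passed the adjusted p without reaching the fold threshold, as 65.4% of the genes tested passed it in either direction. The numbers of the fits are given on the log2 scale with their SE, and levels are in CPM scaled across tissues.

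Nphs1 encodes nephrin, the adhesion protein that spans the slit. It had 37.8, 34.9, 27.2 and 27.7 CPM in the 4 young kidney libraries and 33.7, 37.7, 27.0 and 36.3 CPM in the old ones. In young liver a single read was counted over the 4 libraries, against 3300 reads in young kidney, a ratio of 1910 in TMM-scaled CPM, with a 95% exact interval of 343 to 75600 for counting error only. Old liver and both fibroblast groups had 0 reads, so that old kidney was at least 767-fold higher than old liver and DMSO kidney at least 638-fold higher than DMSO fibroblasts, against a floor of 3 reads over the group. Scaled by total counts alone these values were 4000, 1640 and 784. Nphs1 had the fewest reads outside kidney of the 8 members. Of its exon length, 9.02% (597 bp) overlaps the antisense gene Nphs1os and 2.76% (183 bp) the antisense pseudogene Rps12-ps4, and the counts were made without strand. The count files set apart 1.72 to 2.81% of reads as ambiguous between genes, so that reads in the overlap with Nphs1os may be missing from the Nphs1 count.

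Cd2ap encodes an adaptor that ties nephrin to the actin skeleton, and Magi2 encodes a scaffold of the same junction. Cd2ap was read in every tissue, at 108, 98.0, 79.5 and 56.3 CPM in young kidney, 49.1, 57.3, 46.0 and 33.3 CPM in young liver and 35.4, 33.8 and 31.3 CPM in DMSO fibroblasts. Its kidney level was higher than that in liver by 0.86 on the log2 scale (SE 0.21, adjusted p = 0.00322), and the ranges of the libraries overlapped only between the highest liver and the lowest kidney library. Without that lowest library, young kidney replicate 4, the difference was 1.01 and Cd2ap was called. The size of the difference depended on the scaling. CPM by total count alone gave a mean of 120.9 in young kidney and 31.64 in young liver. The ratio of the summed reads was 3.86 by total counts and 1.85 in TMM-scaled CPM. Magi2 had 16.8, 13.5, 10.1 and 7.02 CPM in young kidney and at most 0.257 CPM in young liver, a difference of 6.55 (SE 0.564, adjusted p = 6.99e-07) from only 7 liver reads. In DMSO fibroblasts Magi2 was present at 3.23, 3.63 and 4.53 CPM.

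Wt1, a zinc finger transcription factor that podocytes keep throughout life, had 13.5, 13.5, 11.6 and 9.41 CPM in young kidney and 0.45, 0.119, 0.446 and 0.376 CPM in young liver. The difference was 5.1 (SE 0.323, adjusted p = 4.25e-08). Liver was not free of Wt1, and its level was 1.04, 3.77, 4.12 and 1.43 CPM in DMSO liver, where it differed from DMSO kidney by 1.94 (SE 0.349, adjusted p = 0.000341). With 3C it was 4.4, 4.31, 1.81 and 2.71 CPM in liver. Wt1 is also a gene of mesothelium, the lining of the body cavities, and the 6 mesothelial marker genes summed to 17.1, 23.0, 24.0 and 14.7 CPM in the same DMSO and 43.8, 33.6, 13.7 and 18.5 CPM in the same 3C liver libraries, the highest of each group being the same libraries. In the untreated livers the highest Wt1 value and the highest mesothelial sum (26.6 CPM) fell in old liver replicate 1, and the other values did not keep one order. The part of mesothelial cells in the liver level of Wt1 was not tested.

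Podxl encodes podocalyxin, the charged sialoglycoprotein of the podocyte surface, which endothelial cells also make. It was the member with most reads in kidney, at 289, 244, 202 and 180 CPM in young kidney against 11.3, 14, 8.32 and 7.67 CPM in young liver. This was a difference of 4.45 (SE 0.234, adjusted p = 7.55e-09). In DMSO fibroblasts it was at 0.0389, 0.222 and 0 CPM. Ptpro, a receptor tyrosine phosphatase of the podocyte surface, had 23.5, 20.6, 18.5 and 12.5 CPM in young kidney and 0.772, 1.31, 0.892 and 0.827 CPM in young liver, a difference of 4.27 (SE 0.272, adjusted p = 4.43e-08).

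Synpo encodes synaptopodin, which bundles actin in foot processes and is also known from dendritic spines. Its level was 232, 270 and 276 CPM in DMSO fibroblasts, against 79.6, 76.9, 81.0 and 89.8 CPM in DMSO kidney. Kidney was lower than fibroblasts in every library (log2 difference −1.65, SE 0.086, adjusted p = 3.53e-09). Against young liver, where Synpo had 5.08, 7.17, 8.03 and 3.91 CPM, young kidney was higher by 3.26 (SE 0.232, adjusted p = 1.2e-07).

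Plce1, a phospholipase C that acts in podocyte maturation, did not follow the kidney pattern. It had 8.83, 10.1, 9.56 and 7.22 CPM in young kidney and 20.3, 14.5, 17.1 and 10.2 CPM in young liver, a log2 difference of −0.81 (SE 0.212, adjusted p = 0.00512), the nearest libraries being at 10.1 and 10.2 CPM. The direction depended on the scaling, since CPM by total count alone gave a mean of 12.58 in young kidney and 10.53 in young liver, whereas with the length and GC trend of each library removed the difference was −1.47 and reached the fold threshold. In DMSO fibroblasts Plce1 had 0.117, 0.778 and 0.671 CPM.

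**Figure D1:**
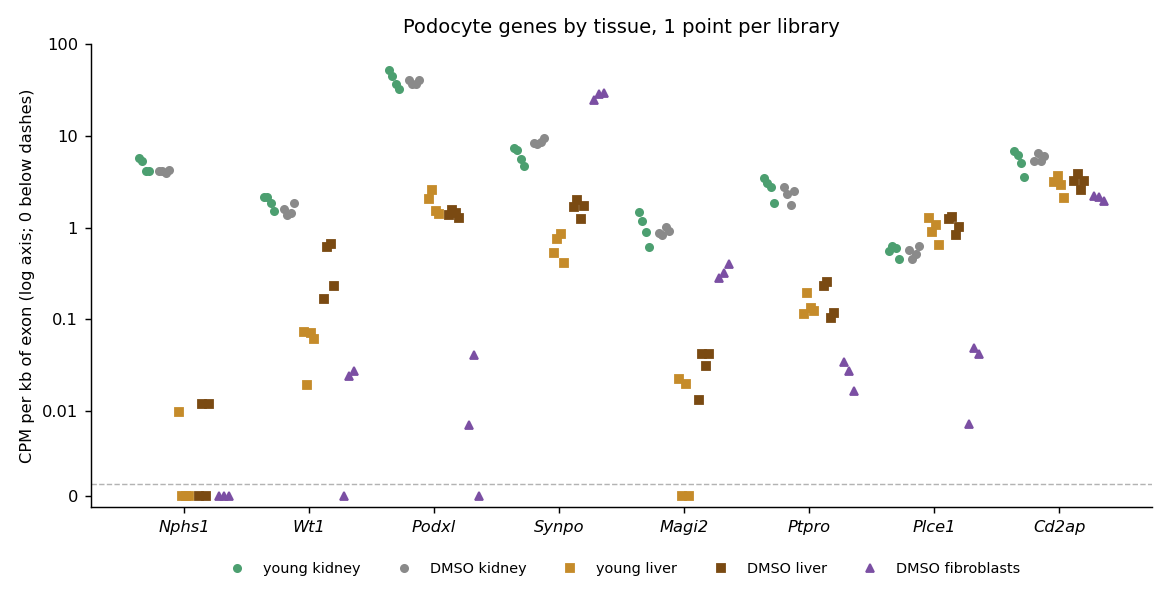
Levels of the 8 podocyte genes in CPM per kb of exon (log axis, values of 0 below the dashes), 1 point per library, in young kidney, DMSO kidney, young liver, DMSO liver and DMSO fibroblasts. Podxl lies highest in kidney, at a mean of 41.7 CPM per kb in young kidney, while Synpo lies higher in DMSO fibroblasts than in the kidney and liver groups shown, at a mean of 27.2 CPM per kb.

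The same pattern was found in the treated series. Between DMSO kidney and DMSO liver, 6 members were called higher (background 26.6%) and Plce1 was called lower (background 15.7%), the latter at a log2 difference of −1.01 (SE 0.164, adjusted p = 0.000153). The Plce1 call sat on the fold threshold and was lost with the replicate number as a block (−0.99), with no filter or a filter at 1 CPM, and without DMSO kidney replicate 2 or 3 or DMSO liver replicate 1 or 2 (−0.98 to −0.94), and total counts alone gave a mean of 11.88 CPM in DMSO kidney and 12.12 CPM in DMSO liver. Between DMSO kidney and DMSO fibroblasts, 7 members were called higher in kidney (background 32.4%) and Synpo was called lower (background 22.8%). Cd2ap was higher in kidney than in fibroblasts by 1.46 (SE 0.102, adjusted p = 5.78e-08), and Magi2 by 1.47 (SE 0.16, adjusted p = 3.27e-06). With the length and GC trend of each library removed these became 0.90 and 0.82, under the fold threshold, a step that moved the median of all genes by −0.392 in that comparison.

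Levels were compared between genes only per kb of union exon length. Podxl came first in each of the 4 kidney groups, with a mean of 41.7 CPM per kb (range 32.7 to 52.7) in young kidney. Synpo (6.17), Cd2ap (5.39) and Nphs1 (4.82) followed with overlapping ranges, then Ptpro (2.79) and Wt1 (1.94), and last Magi2 (1.04) and Plce1 (0.558). Neighbours within each of these 3 sets overlapped in young kidney. The order in DMSO kidney was the same, with the sets apart and, in addition, no overlap among Synpo (8.06 to 9.42), Cd2ap (5.25 to 6.46) and Nphs1 (3.91 to 4.2) or between Magi2 (0.836 to 1.02) and Plce1 (0.455 to 0.631). In liver the order was another one, with Cd2ap first in young liver (2.93 CPM per kb), then Podxl (1.88), Plce1 (0.969) and Synpo (0.634), and in DMSO fibroblasts Synpo (27.2) stood above Cd2ap (2.11) and Magi2 (0.335).

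The first main comparison asked which genes differ between the aged and the young kidney. None of the 8 podocyte genes was called in either direction. The background was 5.68% of 14495 genes called higher and 0.407% called lower, 11.5% passed the adjusted p alone, and 17.8% had groups that did not overlap, while among the members 0 passed each of these. With edgeR 0 of 8 members and 4360 genes had an unadjusted p under 0.05, and DESeq2 called 0 of 8 members and 1043 genes. The median log2 difference of the members was −0.18, against 0.021 over all genes tested, and 6 of 8 members lay below 0. Without old kidney replicate 2 the median was −0.355, against 0.0291 over all genes, with 7 of 8 members below 0. With the length and GC trend of each library removed it was −0.009, Plce1 became 0.22 and Cd2ap 0.19, and 4 of 8 members lay below 0.

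**Figure D2:**
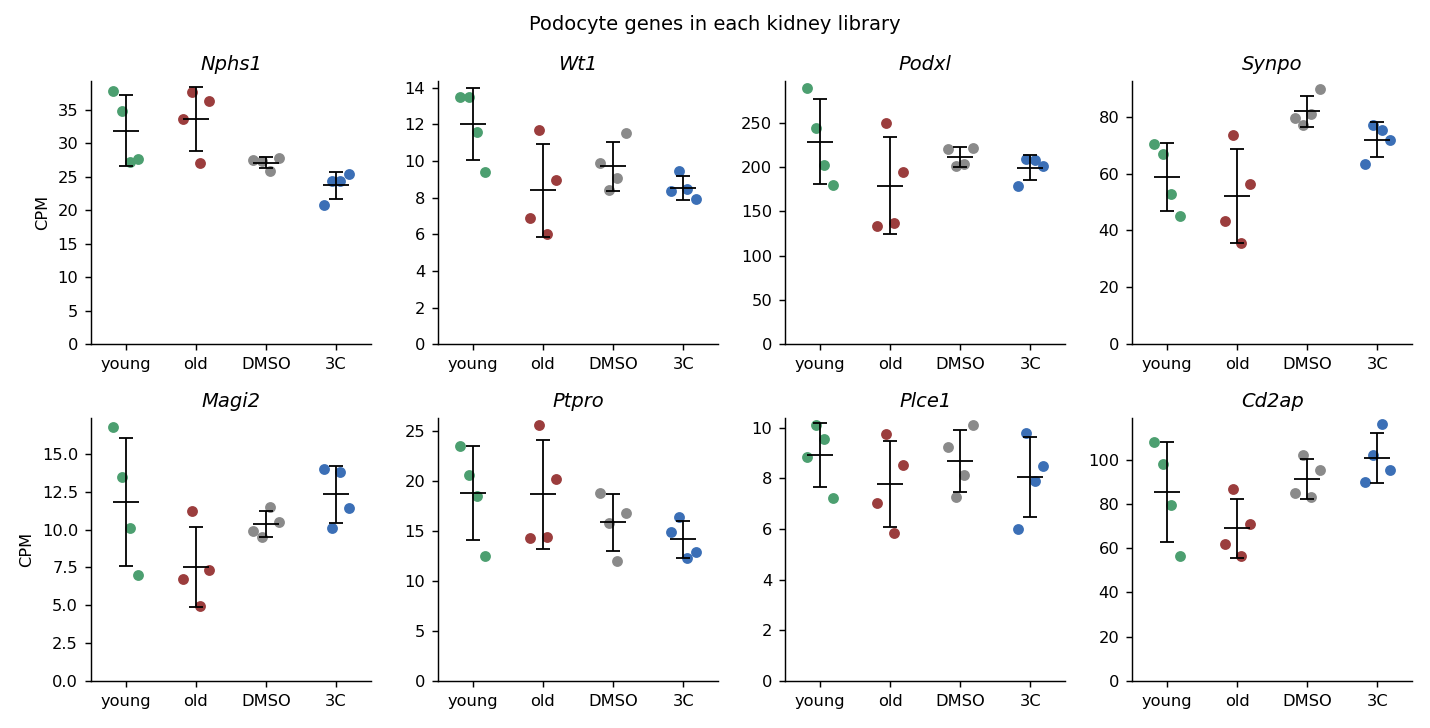
CPM of each podocyte gene in the young, old, DMSO and 3C kidney libraries (4 each), with the mean and SD as bars. Young and old libraries overlap for all 8 genes, and old kidney replicate 2 is the highest of the old libraries for 8 of 8 genes.

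At the slit diaphragm, Nphs1 was 31.9 ± 5.28 CPM (SD, n = 4) in young and 33.7 ± 4.76 CPM in old kidney, a log2 difference of 0.15 (SE 0.155, adjusted p = 0.549). Magi2 had 6.72, 11.2, 4.94 and 7.33 CPM in old kidney, below its young mean of 11.9 ± 4.25 CPM in 4 of 4 libraries. Its log2 difference of −0.57 (SE 0.31, adjusted p = 0.24) was the lowest of the members, and 2 old libraries lay above the lowest young one. Cd2ap had 61.8, 86.9, 56.4 and 70.8 CPM in old kidney and differed by −0.24 (SE 0.21, adjusted p = 0.471).

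Wt1 had 6.89, 11.7, 6.03 and 8.95 CPM in old kidney, against a mean of 12 CPM in young kidney (SD 1.96, n = 4). The log2 difference was −0.44 (SE 0.231, adjusted p = 0.227), with old kidney replicate 2 inside the young range. At the surface, Podxl had 134, 250, 137 and 195 CPM in old kidney, a difference of −0.28 (SE 0.234, adjusted p = 0.448), and Ptpro had 14.3, 25.6, 14.4 and 20.2 CPM, a difference of 0.07 (SE 0.245, adjusted p = 0.877). For both genes the highest of all 4 old values belonged to replicate 2.

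Synpo had 43.3, 73.6, 35.7 and 56.2 CPM in old kidney against 70.4, 67.0, 52.9 and 45.0 CPM in young kidney, a log2 difference of −0.09 (SE 0.237, adjusted p = 0.812). Plce1 had 7.04, 9.75, 5.83 and 8.52 CPM in old kidney and differed by −0.12 (SE 0.2, adjusted p = 0.703). For both genes the old and young values overlapped.

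Old kidney replicate 2, the library with hepatocyte transcripts, was the highest old library for every member. Without it the log2 differences were −0.66 for Wt1, −0.85 for Magi2, −0.50 for Podxl, −0.39 for Cd2ap, −0.32 for Synpo, −0.26 for Plce1, −0.14 for Ptpro and 0.07 for Nphs1. Since it was the highest old library for every member, leaving it out lowers each difference. Over all fits that left out a library, Wt1 ran from −0.66 to −0.30, Magi2 from −0.85 to −0.36 and Podxl from −0.50 to −0.15. The part of the hepatocyte reads in these differences was not tested. With old kidney replicate 2 left out, Wt1 passed the adjusted p (adjusted p = 0.0401) and Magi2 did not (adjusted p = 0.0524), and 0 of 8 members were called because no difference reached the fold threshold. Of 14519 genes tested in that fit, 23.7% passed the adjusted p alone, 5.9% were called higher and 2.32% were called lower, and 31.3% had groups that did not overlap, against 0 of 8 members. In the fit with all libraries the approximate 95% intervals of the log2 difference ran from −0.89 to 0.01 for Wt1 and from −1.18 to 0.04 for Magi2. They were made from the SE with the normal distribution, which for so few libraries gives intervals that are too narrow.

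The second main comparison asked which genes differ between the kidneys of mice that received 3C and those that received DMSO. With edgeR 0 of 8 members were called, and the background was 0% of 14974 genes called higher, 0% called lower and 0% with an adjusted p under 0.05 alone. At an unadjusted p under 0.05 there were 2 members and 1786 genes, and DESeq2 called 0 members and 5 genes. The groups did not overlap for 2 of 8 members, Nphs1 and Synpo, both lower with 3C, against a background of 6.94% of genes in either direction. The median log2 difference of the members was −0.15, against 0.0038 over all genes tested, with 6 of 8 members below 0.

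Nphs1 had 27.5, 27.3, 25.9 and 27.8 CPM in DMSO kidney and 20.8, 24.4, 24.4 and 25.4 CPM in 3C kidney. All 4 values with 3C lay below the lowest DMSO value, and the log2 difference was −0.20 (SE 0.0715, unadjusted p = 0.0174, adjusted p = 0.319). Synpo had 79.6, 76.9, 81.0 and 89.8 CPM in DMSO kidney and 63.2, 77.1, 75.2 and 71.9 CPM in 3C kidney, a log2 difference of −0.20 (SE 0.073, unadjusted p = 0.0203, adjusted p = 0.329). For Synpo the groups were apart when scaled within kidney, and on the scale across tissues shown here they touched, at 76.9 and 77.1 CPM.

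For the other 6 members the groups overlapped. Wt1 was 9.71 ± 1.33 CPM (SD, n = 4) in DMSO and 8.54 ± 0.643 CPM in 3C kidney, a log2 difference of −0.20 (SE 0.113, adjusted p = 0.538). Podxl differed by −0.10 (SE 0.0648, adjusted p = 0.593), Ptpro by −0.18 (SE 0.138, adjusted p = 0.669) and Plce1 by −0.12 (SE 0.153, adjusted p = 0.815). Magi2 had 9.94, 9.49, 11.5 and 10.5 CPM in DMSO and 14, 10.1, 13.8 and 11.4 CPM in 3C kidney, a difference of 0.24 (SE 0.119, adjusted p = 0.467), and Cd2ap differed by 0.13 (SE 0.094, adjusted p = 0.647).

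**Figure D3:**
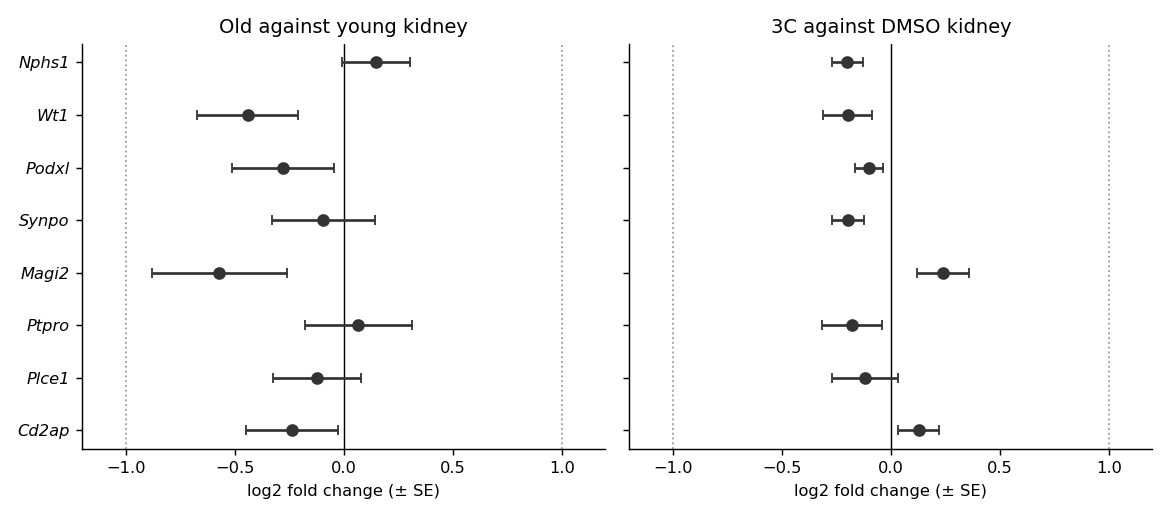
Log2 fold change with its SE for each podocyte gene, old against young kidney and 3C against DMSO kidney, with dotted lines at the fold threshold of 2. All points lie between −0.57 and 0.24, inside the dotted lines, and the bars are longer in the age comparison.

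In liver and fibroblasts fewer members had enough reads to be tested. In old against young liver 5 members were tested and 0 were called with edgeR (0 by DESeq2), against a background of 1.69% of genes called higher, 0.439% called lower and 2.46% with the adjusted p alone. Ptpro alone had an unadjusted p under 0.05, at 0.772, 1.31, 0.892 and 0.827 CPM in young and 2.49, 1.82, 3.26 and 0.676 CPM in old liver (log2 difference 1.12, SE 0.491, unadjusted p = 0.0437, adjusted p = 0.319). The old liver held both the highest and the lowest of these values. B and plasma cell genes summed to 5.66 to 7.97 CPM in young and 24.8 to 111 CPM in old liver. Macrophage genes (2 of 8 called higher) summed to 475 to 740 CPM in young and 688 to 1340 CPM in old liver, and the highest and the lowest old library were those of Ptpro. The part of these cells in the Ptpro level was not tested.

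In 3C against DMSO liver 6 members were tested and 0 were called, and the background was 0% called higher and 0% called lower. At an unadjusted p under 0.05 there were 0 members and 436 genes, and DESeq2 called 0 members and 2 genes. The log2 differences ran from −0.77 for Ptpro (SE 0.435) to 0.37 for Wt1 (SE 0.451), each with an adjusted p of 1. In fibroblasts 4 members were tested and 0 were called by edgeR or DESeq2, with 0 at an unadjusted p under 0.05 and a background of 1.23% called higher and 0.632% called lower. Synpo had 279, 294 and 236 CPM with 3C, a log2 difference of 0.07 (SE 0.132, adjusted p = 0.827), and Magi2 had 3.51, 2.54 and 3.27 CPM, a difference of −0.28 (SE 0.236, adjusted p = 0.552).

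Whether the age effect differs between liver and kidney was tested as an interaction. Wt1 passed at an adjusted p under 0.05, and 1.72% of all genes did. Its age difference in liver exceeded that in kidney by 2.02 on the log2 scale (SE 0.49, adjusted p = 0.0479). The liver level of Wt1 was 0.348 ± 0.156 CPM (SD) over the 4 young and 0.995 ± 0.33 CPM over the 4 old libraries, on 20 and 63 reads in all, too few for the separate liver test. Wt1 thus entered the joint fit through its kidney reads, and no conclusion is drawn from its interaction. The call was lost with RLE size factors, with no filter and in 14 of 16 fits that left out a library. For Ptpro the same difference was 1.09 (SE 0.51, unadjusted p = 0.0479, adjusted p = 0.35). The 3C effect differed between the tissues for 0 of 8 members (0 at an unadjusted p under 0.05, 0 by DESeq2), as for 0% of all genes. Of these, Nphs1 and Magi2 had 2 and 18 reads in DMSO liver and 0 and 18 in 3C liver. They were too low for a liver test and entered the fit through their kidney reads, so their outcome is not informative.

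The members were then set beside 58 other genes known from podocytes in 5 lists (slit diaphragm partners, cytoskeleton and adhesion, transcription factors, basement membrane, signals and receptors), of which 56 were tested in kidney. Many of them are not particular to podocytes. Between DMSO kidney and DMSO fibroblasts, 27 of 57 tested were called higher in kidney and 16 lower (background 32.4% and 22.8%). Between DMSO kidney and DMSO liver, 32 of 55 were called higher and 4 lower (background 26.6% and 15.7%). With age 0 of 56 were called, and 7 (12.5%) passed the adjusted p alone, close to the 11.5% of all genes. The 4 higher in old kidney were Cdkn1c, a cell cycle inhibitor of differentiated podocytes (0.94, SE 0.154, adjusted p = 0.00451, from 33.0 ± 3.27 to 60.4 ± 10.3 CPM, n = 4), the formin Inf2 (0.79, adjusted p = 0.0362), nestin, Nes (0.57, adjusted p = 0.0375), and the integrin subunit Itga3 (0.52, adjusted p = 0.045). Lower were the basement membrane collagen Col4a3 (−0.84, adjusted p = 0.036), the ligand Angpt1 (−0.71, adjusted p = 0.0378) and Ildr2 (−0.63, adjusted p = 0.0272). The median log2 difference was −0.36 over 9 basement membrane genes, −0.11 over 13 slit diaphragm partners, 0.07 over 16 cytoskeleton and adhesion genes, −0.03 over 7 transcription factors and −0.04 over 11 signals and receptors.

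Without old kidney replicate 2, 15 of the 56 (26.8%) passed the adjusted p alone, against 23.7% of all genes in that fit, 5 higher and 10 lower. Col4a3 (−1.01, adjusted p = 0.0105) and Thsd7a, a membrane protein of podocytes (−1.35, adjusted p = 0.0238), were called lower, the latter named after its values were seen. Of the 7 genes above, 6 passed again and Itga3 did not (0.45, adjusted p = 0.0504). The list medians in that order were −0.52, −0.26, −0.04, −0.12 and −0.22, so that the sign for cytoskeleton and adhesion genes turned.

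Genes of immune cells were called higher with age. All 8 macrophage genes and all 6 B and plasma cell genes were called higher in old kidney, with summed levels of 82.6 to 107 CPM and 4.0 to 8.13 CPM in young against 288 to 534 CPM and 231 to 341 CPM in old libraries. Of 5 tested T cell genes 4 were called higher. Of the 6 proximal tubule genes 1 was called lower and 3 passed the adjusted p, and their sum went from 6120 to 8180 CPM in young to 3520 to 4580 CPM in old kidney. Among glomerular cells, 1 of 10 endothelial, 1 of 8 mesangial and 2 of 6 parietal genes were called higher, 1 of 5 tested mesothelial genes was called higher, and 0 of 6 tested hepatocyte genes were called. Without old kidney replicate 2 these numbers of calls were the same apart from proximal tubule genes, of which 2 were called lower and 5 passed the adjusted p. The part of these changes in the podocyte levels in CPM was not tested.

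With 3C, 0 of the 56 tested genes of the 5 lists were called and 0 passed the adjusted p, by edgeR. The groups did not overlap for 9 of them (16.1%, against 6.94% of all genes), 8 lower and 1 higher with 3C. The lowest p belonged to Tcf21, a transcription factor of podocytes and stromal cells (−0.68, SE 0.118, unadjusted p = 0.000131, adjusted p = 0.138), followed by Slc9a3r2, which binds podocalyxin (−0.34, adjusted p = 0.195), and the transcription factor Zeb2 (−0.33, adjusted p = 0.195). Macrophage genes summed to 331 to 360 CPM with DMSO and 229 to 330 CPM with 3C. Of the 8 macrophage genes 0 were called, and all 8 had values below 0, with a median of −0.54. Other cell types also had medians below 0, with 0 genes called, at −1.03 for B and plasma cell (0 of 6 above 0), −0.59 for T cell (0 of 5), −0.43 for mesothelial (1 of 5), −0.28 for mesangial (1 of 8), −0.21 for parietal (0 of 6), −0.17 for glomerular endothelial (0 of 10) and −0.15 for hepatocyte genes (2 of 6). Proximal tubule genes had a median of 0.15 (6 of 6 above 0). The part of these in the podocyte values was not tested.

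Within each group the members varied together from library to library in the untreated series. After the group mean was taken out of the log2 CPM (prior count 2), all 28 pairs of members correlated above 0 over the 8 young and old kidney libraries, with a median Pearson's r of 0.907 (0.732 to 0.991) and a median Spearman's rho of 0.893. Without old kidney replicates 2 and 3, the libraries farthest from the median, the median r was 0.85 (0.393 to 0.982). These values are descriptions over libraries that share depth and composition. The mean log2 CPM of the 8 genes was 5.72, 5.61, 5.37 and 5.06 in the young and 5.0, 5.72, 4.79 and 5.39 in the old libraries, and the spread within either group was larger than the difference between their means. Other lists varied with the members too, with a median r of 0.943 for basement membrane, 0.735 for endothelial and 0.197 for proximal tubule genes, against 0.163 over all genes.

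In the untreated series 6 members still varied together once a smooth trend over exon length and GC content was taken out of each library, a step added after the data were seen, while Plce1 and Cd2ap did not vary along with these or with each other. The 15 pairs among Nphs1, Wt1, Podxl, Synpo, Magi2 and Ptpro, the 6 genes called higher in kidney than in liver, all remained above 0, with a median r of 0.825 (0.608 to 0.997). The 13 pairs that held Plce1 or Cd2ap, the 2 members not called higher in kidney, were all below 0, with a median of −0.514 (−0.623 to −0.069), that of Plce1 with Cd2ap being −0.075. Before that step these 13 pairs were all above 0, with a median of 0.897. Plce1 and Cd2ap have the longest exon sequence of the members, 15998 and 15864 bp against 5488 to 11348 bp, and Cd2ap has the lowest GC content, 38.4%. Whether the step itself turned the sign of these pairs was not tested. In the treated series the median r of the 28 pairs was 0.253 (−0.618 to 0.908) with 19 above 0, and the members' levels there spanned a narrower range, a mean log2 CPM of 5.14 to 5.43. This split was not seen there with the trend taken out, where the 15 pairs had a median r of 0.069 (9 above 0) and the 13 pairs with Plce1 or Cd2ap one of 0.225 (8 above 0).

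**Figure D4:**
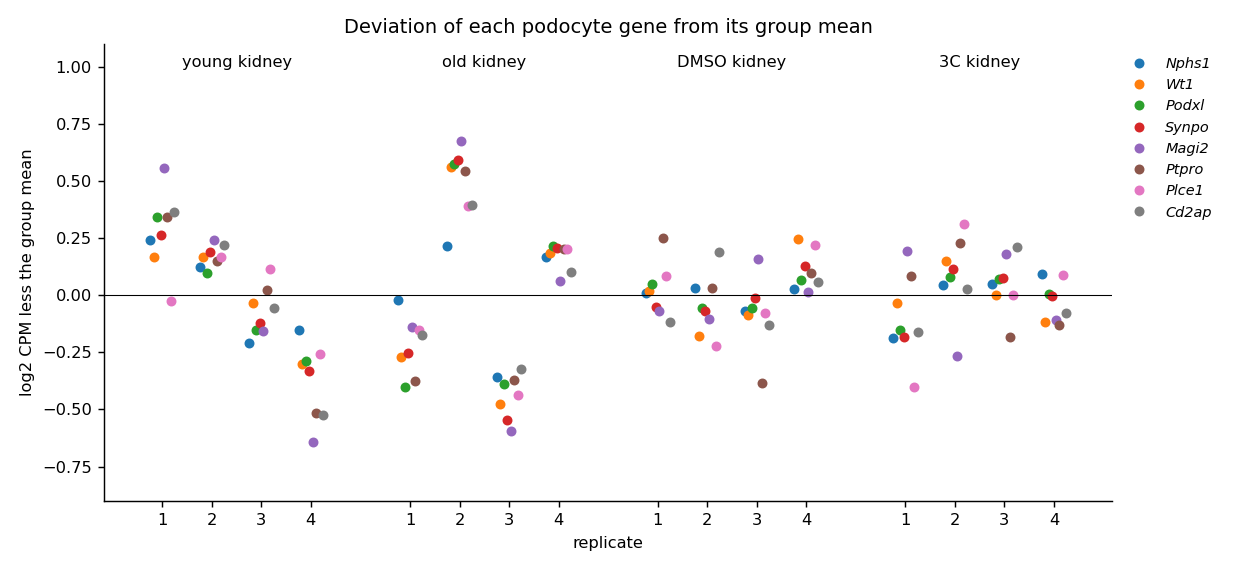
Deviation of the log2 CPM of each podocyte gene from its group mean, by replicate of the young, old, DMSO and 3C kidney groups, 1 colour per gene. In old kidney the 8 genes lie together above 0 in replicate 2 and below 0 in replicate 3, and the DMSO and 3C libraries lie closer to 0.

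The genes whose deviations were most like the mean of the 8 members in both series (the smaller of the 2 Pearson's r over 8 libraries each, among 13689 genes) were Tmem170 (0.944), Nktr (0.917), Cped1 (0.917), Timp2 (0.91), Ss18 (0.909), Fam198b (0.909), Etl4 (0.909) and Cdk6 (0.901). None of these was in a podocyte list, and 357 genes had a value above 0.7. In the treated series the mean stood for the members unevenly. There the r of a member with the mean of all 8 ran from −0.432 for Magi2 to 0.922 for Podxl. The trend over length and GC was not taken out for these values.

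Levels relative to the other 7 members removed the variation common to a library. On this scale Wt1 was lower in old kidney, at −1.86 (−1.91 to −1.78) against −1.55 (−1.68 to −1.46) in young kidney as log2 ratios, with no overlap. Ptpro was higher, at −0.55 (−0.72 to −0.47) against −0.84 (−0.999 to −0.73). These were 2 of 8 members whose groups did not overlap, where 13.9% of all genes measured against the same members did not. With the trend over length and GC taken out, Wt1 stayed apart with a difference of −0.49 in place of −0.31. Ptpro overlapped, though its difference changed little, at 0.27 in place of 0.29. With 3C, Synpo was apart and lower, at 1.53 against 1.67, as 1 of 8 members against a background of 6.5%. After the same step it overlapped, with a difference of −0.09 in place of −0.14.

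Open chromatin at the members was read from the peaks of 12 ATAC-seq libraries, 93072 to 136849 peaks each. Within 1 kb of any annotated start, 5 of 8 members (Wt1, Podxl, Synpo, Magi2, Cd2ap) had a peak in all 6 kidney libraries, against 63.8% of protein-coding genes, and 5 of 8 (Podxl, Synpo, Magi2, Plce1, Cd2ap) in all 6 liver libraries, against 58.1%. A peak in all 6 kidney and no liver library was found for Wt1, 1 of 8 against 0.955%. Since several members have starts deep inside the gene, the 5′ start of the gene was also taken alone, a choice made after the data were seen. There 4 of 8 members had a peak in all 6 kidney libraries (background 58.7%), and Nphs1 and Ptpro had none in any kidney library (2 of 8, background 27.5%).

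**Figure D5:**
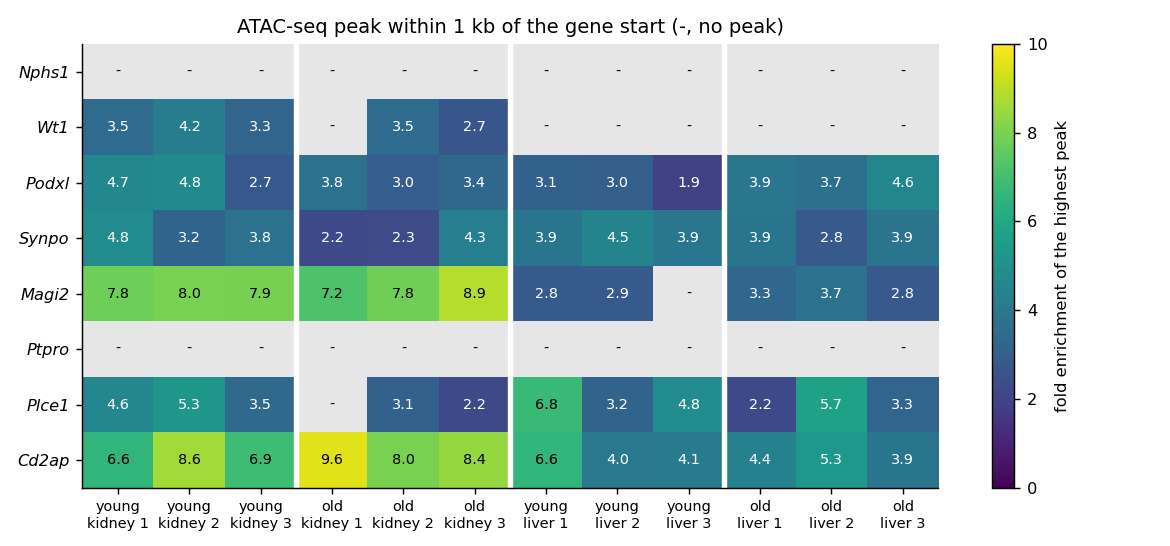
Fold enrichment of the highest ATAC-seq peak within 1 kb of the 5′ start of each podocyte gene in the 12 libraries (colour scale 0 to 10, grey with a dash for no peak). Nphs1 and Ptpro have no peak in any library, Wt1 has peaks in kidney libraries, and Magi2 and Cd2ap reach the highest values, 7.2 to 8.89 and 6.58 to 9.55 in kidney.

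At its 5′ start Magi2 (GRCm38 chr5:19227036-20704792, plus strand) had a fold enrichment of 7.81, 7.98 and 7.93 in young and 7.2, 7.83 and 8.89 in old kidney. In liver it was 2.82 and 2.85 with 1 library without a peak in young, and 3.3, 3.74 and 2.78 in old. All kidney values lay above all liver values, as they did for the highest peak at any start of Magi2, where the tissues were closer, at 8.04 to 9.08 in kidney and 5.66 to 7.44 in liver. Cd2ap (chr17:42792951-42876665, minus strand) had 6.58, 8.61 and 6.9 in young and 9.55, 7.97 and 8.43 in old kidney, against 3.89 to 6.6 over the 6 liver libraries. The lowest kidney and the highest liver library of Cd2ap overlapped.

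Wt1 (chr2:105126529-105173616, plus strand) had 3.51, 4.22 and 3.27 in young kidney, and in old kidney no peak, 3.51 and 2.67, with no peak at the start in any liver library. In the old kidney library without one, a peak of 2.14 lay at a start 4.27 kb into the gene. Podxl (chr6:31519488-31563981, minus strand) had 2.74 to 4.77 in kidney and 1.94 to 4.58 in liver, so that its open start did not separate the tissues although its RNA did. Plce1 (chr19:38481109-38785030, plus strand) had a peak in 5 of 6 kidney and 6 of 6 liver libraries, as it had RNA in both. In kidney its fold enrichment was 4.62, 5.28 and 3.47 in young libraries, and no peak, 3.08 and 2.21 in old ones, with every old value below the young ones.

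Nphs1 (chr7:30458315-30487223, plus strand) had no peak at its 5′ start in any of the 12 libraries, in spite of RNA in every kidney library. The only peaks in its windows lay at a start 16.2 kb into the gene, in 1 kidney library (3.14) and 5 liver libraries (3.37 to 7.44). Ptpro (chr6:137252319-137463233, plus strand) likewise had none at its 5′ start. A start 158 kb into Ptpro, at chr6:137410536-137410984, had a peak in 3 of 3 old kidney libraries (3.83, 2.23 and 3.11), in 0 of 3 young ones and in 5 of 6 liver libraries (2.68 to 5.0). Shorter forms of this phosphatase are known from macrophages and B cells, whose marker genes were higher in old kidney by the sums above. Their part in this peak was not tested.

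Old and young libraries were compared at the 5′ start of the members with a peak there in all 6 libraries of a tissue, by the two-sided exact permutation test, whose smallest p is 0.1 with 3 against 3. In kidney the mean fold enrichment went from 4.06 to 3.37 for Podxl (exact p = 0.4), 3.93 to 2.92 for Synpo (exact p = 0.3), 7.91 to 7.97 for Magi2 (exact p = 0.9) and 7.36 to 8.65 for Cd2ap (exact p = 0.3). The highest peak at any start lay at different starts in young and old kidney for Synpo, Magi2 and Wt1, so that its differences (−0.036, −0.295 and −0.896) do not compare 1 peak with age, and that of Synpo was −1.68 with a window of 0.5 kb. In liver Podxl went from 2.69 to 4.06 and Synpo from 4.11 to 3.51, each with the smallest p the design allows (exact p = 0.1), and for Plce1 and Cd2ap the exact p was 0.5 and 0.8. By the highest peak at any start, with no peak taken as the lowest value, old and young groups did not overlap for Plce1 (lower) and Ptpro (higher) in kidney, 2 of 8 members against 23.5% of protein-coding genes with a peak, and for Podxl (higher) and Synpo (lower) in liver, 2 of 7 against 13.3%.

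The sequences before 3 of the starts are shown because they span the extremes of these peaks, a stronger peak at the 5′ start in kidney than in liver (Magi2), a peak in every library of both (Cd2ap) and none (Ptpro). Each is the 250 bases before the RefSeq start on the gene's strand, 5′ to 3′, from GRCm38.p6, with motif matches in capitals. The positions are chr5:19226796-19227045, chr17:42876425-42876674 and chr6:137252049-137252298. For Cd2ap the RefSeq start lies 0.241 kb inside the gene from the 5′ start used for the peaks, at 42876665. Most of its window is thus inside the annotated gene and not before that 5′ start.
Magi2: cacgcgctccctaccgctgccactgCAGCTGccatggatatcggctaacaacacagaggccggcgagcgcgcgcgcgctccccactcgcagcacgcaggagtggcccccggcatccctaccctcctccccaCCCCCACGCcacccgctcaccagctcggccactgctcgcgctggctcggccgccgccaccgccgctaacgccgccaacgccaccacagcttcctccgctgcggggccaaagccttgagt
Cd2ap: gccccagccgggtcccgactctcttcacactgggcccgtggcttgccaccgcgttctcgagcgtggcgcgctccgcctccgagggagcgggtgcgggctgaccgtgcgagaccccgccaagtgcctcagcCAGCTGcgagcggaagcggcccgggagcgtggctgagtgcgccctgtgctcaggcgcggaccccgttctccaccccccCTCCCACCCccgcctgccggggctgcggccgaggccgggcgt
Ptpro: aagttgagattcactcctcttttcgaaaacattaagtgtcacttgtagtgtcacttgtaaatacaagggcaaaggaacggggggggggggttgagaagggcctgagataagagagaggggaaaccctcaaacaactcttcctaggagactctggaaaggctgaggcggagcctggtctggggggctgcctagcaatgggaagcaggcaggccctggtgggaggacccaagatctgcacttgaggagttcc

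The windows of Magi2 and Cd2ap were rich in GC, at 72.0% and 76.4%, with 29 and 31 CpG pairs, and that of Ptpro held 53.6% GC and 3 CpG pairs. Both GC-rich windows held the WT1-like motif GNGTGGGNG, which begins at −119 in Magi2 and −42 in Cd2ap, and the E-box CAGCTG, at −225 and −120. Among 32851 RefSeq windows of the same length, 12.7% held the former and 13.0% the latter on either strand. These shares are over windows of any GC content, while those of Magi2 and Cd2ap lie at the 93.6 and 97.2 percentile for GC. A homeodomain core TAATTA (4.84% of windows), a forkhead core TGTTTAC (3.17%), a MAF site TGCTGAC (3.81%), a GC box GGGCGG (32.7%), an AP-1 site TGANTCA (6.75%) and TATAAA (12.4%) were also searched on both strands and were in none of the 3 windows. The RefSeq window of Nphs1, not shown, also held the WT1-like motif, at −227, and had no peak in any library. That of Plce1, not shown and also without a peak, held none of the motifs. A match is a run of letters and not a site in use.

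Over the gene bodies, the peaks of the 12 libraries merged into 416 regions, 261 of them in Magi2, which spans 1478 kb. Regions with a peak in all 6 kidney and no liver library numbered 7, or 1.68%, against 1.77% of regions in protein-coding genes. Magi2 held 5 of these, and Ptpro and Plce1 1 each. The mean fold enrichment was lower in old than in young kidney in 6 of the 7, as in 78.5% of 4175 such regions in protein-coding genes. Of those in Magi2, the region at chr5:20056108-20056858 had a fold enrichment of 9.39 ± 1.39 (SD, n = 3) in young and 4.79 ± 0.517 in old kidney, and that at chr5:19829344-19829687 went from 6.29 ± 0.804 to 3.38 ± 0.58. Another, at chr5:20225967-20227472, had 6.83 ± 0.768 and 7.72 ± 1.16, and the other two went from 3.99 to 3.92 and from 6.82 to 5.79. Those in Ptpro and Plce1 went from 3.99 to 2.84 and from 4.24 to 3.69.

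Regions with a peak in all young and no old kidney library numbered 6 of 416 (1.44%), of which Magi2 and Ptpro held 3 each, against a background of 0.96%. They had a fold enrichment of 2.05 to 5.28 where present. The reverse, a peak in all old and no young kidney library, was found once, at the Ptpro start described above, against a background of 0.196%. Every old kidney library had fewer peaks (93072 to 108970) than every young one (115836 to 128395). With the 93072 top peaks of each library, a step added after the data were seen, 5 member regions were lost (1.2%, against 0.614%) and 1 was gained (0.24%, against 0.294%). These counts rest on presence in 3 libraries each and were not tested further.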

How the data were processed

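RNA-seq (38 libraries) and ATAC-seq (12 libraries) were used as deposited. After trimming (Trimmomatic 0.39) and alignment to mm10 (HISAT2 2.2.1), the authors made whole-number counts per gene with HTSeq 0.12.4 without strand. The deposited counts for kidney left out 13.4 to 19.1% of reads that fell outside genes. ATAC-seq reads were aligned with Bowtie2 2.3.5.1 and peaks were called per library with MACS2, and the deposited peak files hold a fold enrichment (ratio), −log10 p and −log10 q. How the DMSO and 3C samples were made is not given in the sources used here.

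The members and lists were chosen with earlier results of these data known. Each comparison was fitted alone in edgeR 4.0.16 (R 4.3.3, quasi-likelihood test, TMM sizes, filterByExpr with a minimum count of 10, two-sided, Benjamini-Hochberg over all genes tested), and a call needed an adjusted p under 0.05 and a fold above 2 or below 0.5. DESeq2 1.42.0 was an alternative. CPM were scaled by TMM over all tissues of a series (young and old; DMSO and 3C). Named genes were all 8 members, the list genes with the smallest p (up to 4 a list for age and 2 for 3C), list sums, and the 8 genes most like the members. Gene positions and exon lengths came from GENCODE vM21 on GRCm38, in which 24534 of 24984 gene names were found, and promoter sequences from RefSeq. In a test on simulated counts, 200 genes were given a true fold of 4, of which 196 were recovered with 4 false calls for kidney age (14495 genes) and 194 with 1 for kidney 3C (14974 genes). It used a common dispersion and independent genes. A fold of 4 exceeds every member difference with age or 3C in kidney, so the test does not show whether such differences could be detected. Same-numbered young kidney and young liver libraries deviated together (r 0.12, 0.219, 0.104 and 0.452), and the replicate number as a block left the 6 calls there in place.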

Additional observations from a re-analysis of the deposited data

Results flagged for a closer look

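In groups of 4 libraries, 62 were searched for a library far from the rest, and 2 were found, where chance gives about 1 in 20. Nphs1 had 0.0643 CPM in young liver replicate 1, which is 1 read against 0 in the other 3 libraries. Synpo had 21.5 CPM in 3C liver replicate 2, against 14.6 to 15.7 CPM in the other 3.

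The age difference of Wt1 was higher in liver than in kidney by 2.02 on the log2 scale (edgeR interaction, SE 0.49, adjusted p = 0.0479). It rests on 20 reads in young and 63 in old liver, too few for the liver test alone, so that Wt1 entered the fit through its kidney reads. The call was lost in 14 of 16 fits that left out a library, and no conclusion is drawn from it.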

How the results depend on the processing

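No member was called with age or 3C in any kidney, liver or fibroblast comparison under any alternative tool, size factor, filter, threshold, block or left-out library that was run, apart from the adjusted p of Wt1 without old kidney replicate 2 given above, which has no fold threshold. Genes called lower with age (59) numbered 105 with DESeq2, 105 with the length and GC trend taken out, 487 by adjusted p alone and 34 to 337 with a library left out, the highest without old kidney replicate 2. Genes called lower with 3C in kidney (0) were 5 with DESeq2 and 0 to 3 with a library left out. The Wt1 interaction (1 member) was 0 with RLE, 0 with no filter and 0 to 1 with a library left out. Members with a peak at a start in all 6 kidney libraries (5) were 3 at a −log10 q of at least 5, and in liver (5) 2 at that threshold and 3 with the same number of top peaks.

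Small differences changed sign. With the length and GC trend taken out the age difference in kidney was 0.22 for Plce1 and 0.19 for Cd2ap, the 3C difference in liver was 2.0e-06 for Podxl and −0.010 for Cd2ap, and that of Synpo in fibroblasts was −0.12. A filter at 1 CPM gave 0.020 for Podxl with age in liver, and the 5′ start alone gave 0.0684 for the Magi2 peak in kidney in place of −0.295 for the highest peak at any start. With a library left out, the ranges for age in kidney were −0.32 to 0.061 for Synpo, −0.14 to 0.18 for Ptpro and −0.26 to 0.0034 for Plce1, and in liver −0.13 to 0.18 for Podxl, −0.25 to 0.12 for Plce1 and −0.16 to 0.17 for Cd2ap. For 3C they were −0.19 to 0.089 for Podxl and −0.046 to 0.19 for Synpo in liver, and −0.0031 to 0.16 for Synpo in fibroblasts. The differences of the highest peak at any start ran from −0.301 to 0.235 for Synpo in kidney and from −0.821 to 0.48 for Cd2ap in liver. Apart from the alternatives' own construction, the causes were not tested.

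The replicate block left 0 members called with age or 3C, and ended the Plce1 call between DMSO kidney and DMSO liver (6 members in place of 7). In none of the 7 comparisons other than young kidney with young liver was every same-numbered pair's r over 0.1 (26 pairs, −0.31 to 0.334, of which 6 were over 0.1), and there the libraries were taken to share only a number. Between DMSO kidney and DMSO liver all 4 were above 0 (0.0117 to 0.126). Pairing was not checked between old kidney and old liver. Wt1, Magi2, Ptpro and Plce1 had 817 to 3290 reads per kidney group, and in liver Nphs1 and Magi2 were too low to test for age or 3C.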
